A study of Mus musculus with 22 samples.

Results

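The genes described here are 8 members of the mouse Ms4a family, Ms4a4a, Ms4a4b, Ms4a4c, Ms4a4d, Ms4a6b, Ms4a6c, Ms4a6d and Ms4a7, taken by symbol. Earlier results of these data were known when they were chosen. Of these, 7 had a row among the 23420 genes of the count table and all 7 passed the filter on low counts, which left 14458 genes for testing. Ms4a4a was not analysed here.

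RNA was sequenced from inguinal white adipose tissue (IWAT) of 11 female C57Bl/6 wild-type mice, 5 lean and 6 obese, with 2 libraries from each mouse. Lean mice had eaten regular chow and obese mice a high-fat diet, with 60% of its kcal from fat, for 16 weeks, and were about 20 weeks old at injection. Each mouse received E0771 cells, a mammary cancer line from the same mouse strain, in PBS with Matrigel in the left fat pad (tumor-associated IWAT) and PBS with Matrigel alone in the right fat pad (control IWAT), and both pads were collected 2 weeks later. The control pad therefore came from an animal that also carried a tumor, so that no library represents a mouse without cancer cells.

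Ms4a genes encode small proteins that cross the membrane in 4 passes. The best-known relatives of the members are CD20 (Ms4a1), a B cell surface protein, and the beta chain of the high-affinity IgE receptor (Ms4a2) of mast cells. Several members are expressed in macrophages and monocytes, where they sit beside immune receptors and affect their signaling, and Ms4a4b is known from T cells.

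All 8 genes lie in a block of 284 kb on chromosome 19, from 11321039 to 11604849 (GRCm38). Among them, 2 pairs of members have related promoters. These promoters are shown because the expression of the genes within each pair can be set against their sequence similarity. Each is the RefSeq window (GRCm38.p6) from 250 bases before to 50 bases after a start site, 300 bases in all, read 5′ to 3′ on the gene's strand. Capitals mark exact runs of at least 10 bases shared with the promoter of another member.
Ms4a4c: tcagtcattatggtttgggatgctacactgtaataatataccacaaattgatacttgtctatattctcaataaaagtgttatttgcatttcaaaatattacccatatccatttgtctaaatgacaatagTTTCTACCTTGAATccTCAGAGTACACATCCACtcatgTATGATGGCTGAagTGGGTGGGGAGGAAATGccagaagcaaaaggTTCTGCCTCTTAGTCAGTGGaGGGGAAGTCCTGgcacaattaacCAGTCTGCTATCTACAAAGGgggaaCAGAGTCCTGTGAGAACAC
Ms4a4b: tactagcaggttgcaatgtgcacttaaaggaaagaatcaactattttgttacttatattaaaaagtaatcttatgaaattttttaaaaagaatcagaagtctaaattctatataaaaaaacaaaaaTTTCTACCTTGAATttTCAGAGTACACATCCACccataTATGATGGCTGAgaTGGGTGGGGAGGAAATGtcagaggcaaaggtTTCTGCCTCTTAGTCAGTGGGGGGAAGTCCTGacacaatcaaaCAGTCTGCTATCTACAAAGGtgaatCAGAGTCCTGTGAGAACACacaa
Ms4a6c: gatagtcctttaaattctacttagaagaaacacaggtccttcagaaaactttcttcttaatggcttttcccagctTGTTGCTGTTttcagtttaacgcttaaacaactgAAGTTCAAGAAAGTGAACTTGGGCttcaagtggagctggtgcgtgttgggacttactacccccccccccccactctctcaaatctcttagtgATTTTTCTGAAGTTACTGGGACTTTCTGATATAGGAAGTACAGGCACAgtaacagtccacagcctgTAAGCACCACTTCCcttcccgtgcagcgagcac
Ms4a6b: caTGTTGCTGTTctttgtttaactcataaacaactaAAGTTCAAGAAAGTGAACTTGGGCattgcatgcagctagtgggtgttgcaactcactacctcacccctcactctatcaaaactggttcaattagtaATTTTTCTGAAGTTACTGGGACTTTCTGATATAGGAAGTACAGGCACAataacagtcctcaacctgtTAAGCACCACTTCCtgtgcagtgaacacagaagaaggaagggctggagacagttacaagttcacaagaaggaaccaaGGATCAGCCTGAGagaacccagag
The windows lie on the plus strand, at chr19:11407411-11407710 for Ms4a4c, chr19:11443308-11443607 for Ms4a4b, chr19:11469118-11469417 for Ms4a6c and chr19:11518309-11518608 for Ms4a6b. Ms4a4c and Ms4a4b matched at 234 of 279 aligned bases (83.9%), and their longest exact run was 20 bases. Ms4a6c and Ms4a6b matched at 194 of 218 aligned bases (89%), with a longest exact run of 48 bases. The 13 capitals near the end of the Ms4a6b window are shared with Ms4a4d instead, and no other pair among the 8 promoters of 7 members shared a run of 10 bases. Pairs without such a run still matched at 67.4% (of 129 aligned bases) to 85.1% (of 47). A window of Ms4a7 and that of Ms4a6b, for example, matched at 75.9% of 232 aligned bases. Ms4a6d had no entry.

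Motifs of factors that act in blood cells and in the interferon response were searched on both strands of these windows. The core of the interferon-stimulated response element, GAAA and a second GAAA with 2 free bases between them, was in 3.44% of all 32851 promoters of this length and in none of the members' promoters. The ETS-IRF composite, GGAA and GAAA with the same spacing, and GAGGAAGT, a PU.1 sequence, were in 2.72% and 3.2% of all promoters and likewise in none of these. The shorter PU.1 core GAGGAA, which every GAGGAAGT also holds, was in 28.3% of all promoters. It occurred 1 time in Ms4a4c, 1 time in Ms4a4b at a like distance from the start (-61 and -64), and 1 time in Ms4a7, where it lay past the start (43). These are matches of letters, not measured binding sites.

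Each library held between 5759775 and 8598108 counts on genes. All 8 adipocyte markers were detected in each library, and their sum ranged from 8954 to 22202 CPM in control IWAT (counts scaled to the normalised library size). Obese control mice 1 and 3 stood apart, with a sum over 8 B cell markers of 707 and 650 CPM. It was 169 CPM in obese tumor-associated mouse 3, 83.1 CPM in lean control mouse 2 and at most 18.2 CPM in the other libraries. The sum over 12 T and NK cell markers was 496 and 509 CPM in obese control mice 1 and 3, 158 CPM in obese tumor-associated mouse 3 and at most 82.0 CPM elsewhere. Results that rest on these libraries are given with and without them, an alternative chosen after the data were seen.

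Tumor-associated IWAT was first compared with control IWAT within each diet, to ask which members change near a tumor. Ms4a4d, Ms4a6c, Ms4a6d and Ms4a7 rose in lean mice (4 of 7 members, against 3.27% of all tested genes called higher). In obese mice Ms4a4c, Ms4a6b, Ms4a6c, Ms4a6d and Ms4a7 rose (5 of 7, against 26.8% of all tested genes called higher). No member fell in either diet. Of the 14458 genes tested, 605 were called in lean mice, 473 of them higher, and 7882 in obese mice, 3879 of them higher. The median log2 fold change of the 7 members was 1.71 in lean and 1.93 in obese mice, beside 0.01 and -0.02 for all tested genes. All of them but Ms4a4b were also on a gene list that the study drew from the lean comparison of these samples, so that their lean direction is not independent evidence. Calls were edgeR quasi-likelihood tests with adjusted p under 0.05, and each fold change below is from that fit with its SE.

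**Figure D1:**
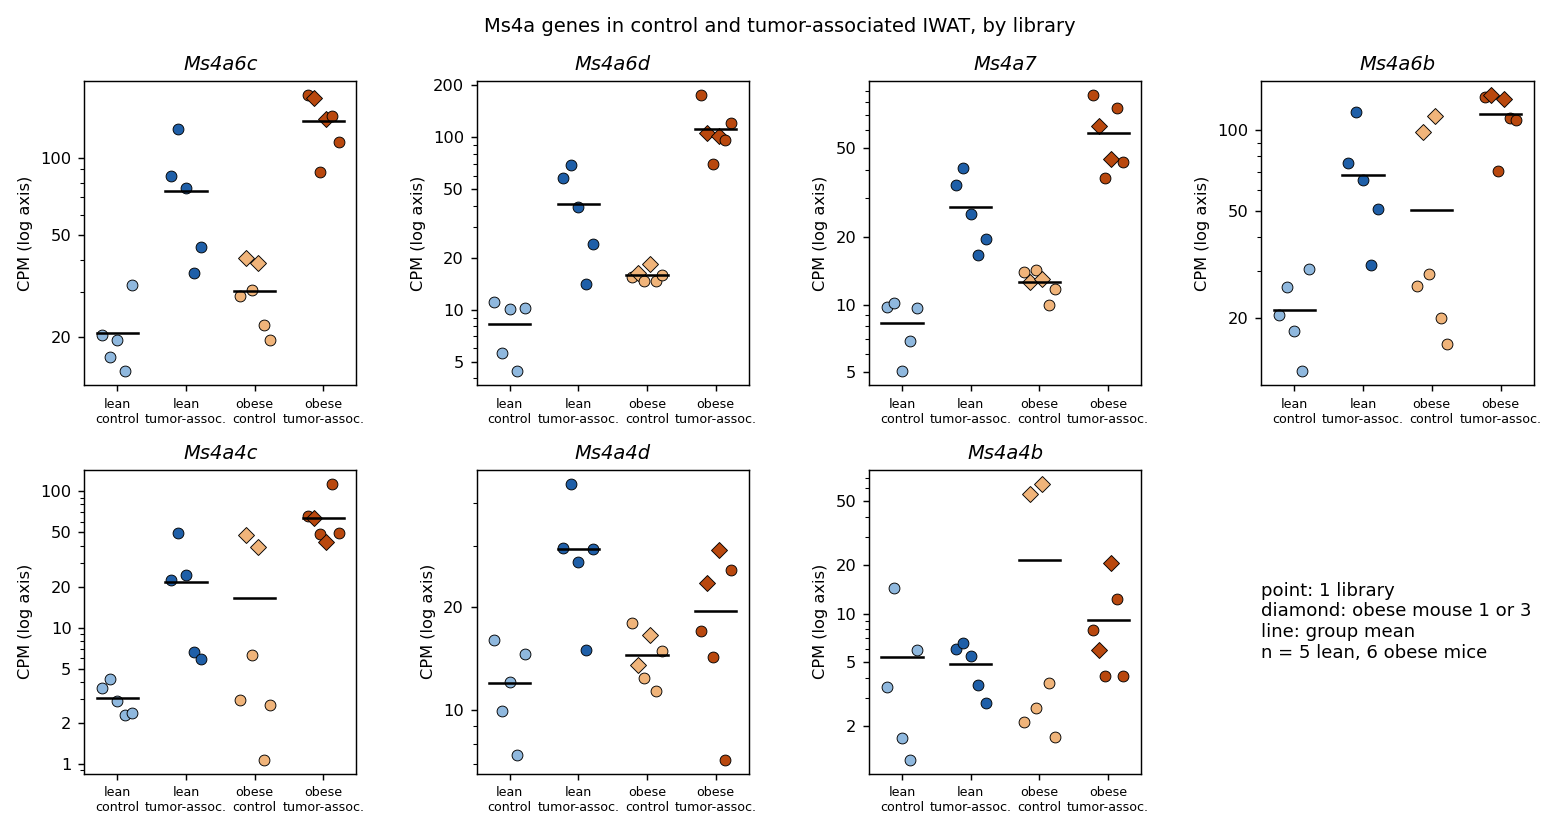
CPM of each member in the 4 groups on log axes, with 1 point per library, a line at the group mean and diamonds for obese mice 1 and 3. Ms4a6c, Ms4a6d and Ms4a7 separate tumor-associated from control IWAT in both diets, whereas Ms4a4b, Ms4a4c and Ms4a6b of obese control IWAT split into 2 high and 4 low libraries.

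Ms4a6d, a macrophage member reported to form a surface complex with the receptor Vsig4, had the largest called change in both diets. In lean control IWAT it was at 11.1, 5.60, 10.1, 4.40 and 10.2 CPM in mice 0, 2, 3, 6 and 9, and in lean tumor-associated IWAT at 58.0, 69.2, 39.4, 14.2 and 23.9 CPM in the same mice. In obese mice it ranged from 14.6 to 18.5 CPM (median 15.7) in control IWAT and from 70.1 to 176 CPM (median 103) in tumor-associated IWAT. Every tumor-associated library was above every control library of its diet, and the 6 obese control libraries lay closer together than those of any other group. The log2 fold change was 2.29 ± 0.35 (SE, n = 5) in lean mice (edgeR adjusted p = 0.000681) and 2.81 ± 0.31 (SE, n = 6) in obese mice (edgeR adjusted p = 2.71e-06), which are 4.88-fold and 7.01-fold.

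Ms4a7, a gene of mature macrophages, followed the same order. Its lean control values were 9.75, 10.1, 5.05, 6.86 and 9.66 CPM, and its lean tumor-associated values 34.1, 40.6, 25.4, 16.6 and 19.6 CPM. Obese control libraries ranged from 9.98 to 14.3 CPM (median 12.8) and obese tumor-associated libraries from 36.6 to 86.1 CPM (median 53.7). The pads did not overlap in either diet, and the log2 fold changes were 1.71 ± 0.27 in lean (edgeR adjusted p = 0.000787) and 2.20 ± 0.24 in obese mice (edgeR adjusted p = 2.08e-06).

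Ms4a6c, a member expressed in monocytes and macrophages, was the most abundant per kb of exon in each group. It was at 20.4, 16.8, 19.6, 14.8 and 32.0 CPM in lean control and at 84.7, 130, 75.9, 35.5 and 44.8 CPM in lean tumor-associated IWAT. The obese control range was 19.6 to 40.8 CPM (median 29.8) and the obese tumor-associated range 88.2 to 175 CPM (median 143). Again the 2 pads of each diet were fully separate. The log2 fold change was 1.84 ± 0.31 in lean (edgeR adjusted p = 0.00156) and 2.20 ± 0.28 in obese mice (edgeR adjusted p = 9.15e-06). Of the 50-base stretches in its exons, 51.4% also occur in other annotated genes, mostly in BE692007, which overlaps it on the other strand, so that the share of its reads that were counted is uncertain. The calls of Ms4a6c, Ms4a6d and Ms4a7 in both tumor comparisons were the same under every alternative run.

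Ms4a6b, the promoter partner of Ms4a6c, differed from it in the size of the spread among obese control libraries. Its lean values were 20.6, 26.1, 17.9, 12.7 and 30.3 CPM in control and 75.9, 117, 65.5, 31.4 and 51.0 CPM in tumor-associated IWAT. In obese control IWAT the 6 libraries ran from 16.0 to 113 CPM (median 27.7) and in obese tumor-associated IWAT from 70.4 to 136 CPM (median 121). The lean pads did not overlap, but obese control mice 1 and 3, at 98.8 and 113 CPM, lay within the tumor-associated range while Ms4a6c in these libraries, at 40.8 and 39.0 CPM, was also the highest of obese control IWAT (the other 4 lay between 19.6 and 30.6 CPM) but below its tumor-associated range. The lean log2 fold change of 1.66 ± 0.47 had an edgeR adjusted p of 0.0503, and with the mouse as a block it passed (1.60, edgeR adjusted p = 0.0289). The obese log2 fold change was 1.18 ± 0.42 (edgeR adjusted p = 0.0219), and without both pads of obese mice 1 and 3 it was 2.20 (edgeR adjusted p = 8.23e-05).

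Ms4a4c was near 3 CPM in lean control IWAT, at 3.60, 4.20, 2.91, 2.29 and 2.37 CPM. In lean tumor-associated IWAT it was at 22.4, 49.7, 24.3, 6.69 and 5.87 CPM, so that mice 6 and 9 stayed low while still above each control library. In obese control IWAT, mice 1 and 3 were at 47.5 and 39.2 CPM and the other 4 between 1.07 and 6.32 CPM, and obese tumor-associated libraries ranged from 42.4 to 114 CPM (median 56.2). Ms4a4c was therefore higher in the tumor-associated pad of 5 of 5 lean and 6 of 6 obese mice, by the least in mice 3 and 1. The lean log2 fold change of 2.81 ± 0.84 did not pass (edgeR adjusted p = 0.0616, 95% interval 1.07 to 4.55), and the obese change of 1.93 ± 0.67 did (edgeR adjusted p = 0.0203). The lean change passed in 9 of 31 alternatives, 4 of them fits that lacked 1 library. Without both pads of obese mice 1 and 3 the lean change passed (2.79, edgeR adjusted p = 0.00776) and the obese change was 4.37 (edgeR adjusted p = 4.65e-05).

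Ms4a4b, expressed in T cells, where it associates with the receptor GITR (Tnfrsf18), behaved unlike its promoter partner Ms4a4c. It was at 3.48, 14.3, 1.68, 1.23 and 5.93 CPM in lean control and at 6.06, 6.53, 5.43, 3.60 and 2.78 CPM in lean tumor-associated IWAT. In obese control IWAT mice 1 and 3 were at 55.0 and 64.2 CPM against 1.72 to 3.68 CPM in the other 4, and obese tumor-associated libraries ranged from 4.07 to 20.5 CPM (median 6.90). The pads overlapped in both diets. The log2 fold change was -0.12 ± 0.92 in lean mice (edgeR adjusted p = 0.996, 95% interval -2.04 to 1.80) and -1.24 ± 0.80 in obese mice (edgeR adjusted p = 0.193, 95% interval -2.90 to 0.42). Without both pads of obese mice 1 and 3 the obese value reversed and passed (1.47, edgeR adjusted p = 0.0446), from 2.53 ± 0.849 CPM in control to 7.08 ± 3.92 CPM in tumor-associated IWAT (SD, n = 4). Over all libraries, 0 of the 12 T and NK cell markers changed in lean and 1 fell in obese tumor-associated IWAT. Of the 7 B cell markers tested 0 changed in lean and 2 fell in obese mice. Among all 14458 tested genes, 605 were called in either direction in lean and 7882 in obese mice. Without obese mice 1 and 3, the T and NK cell sum was 37.9 to 45.5 CPM in obese control IWAT (median 41.1). In obese tumor-associated IWAT it was then 49.8 to 78.9 CPM (median 62.2), above each of those control libraries. The B cell sum was 4.60 to 18.2 CPM and 9.25 to 12.3 CPM in the same libraries. The part of these markers in the values of Ms4a4b, Ms4a4c and Ms4a6b was not tested. Per 100 CPM of the T and NK cell list, Ms4a4b was at 10.3 ± 4.59 and 11.5 ± 2.25 CPM in lean control and tumor-associated IWAT and at 8.11 ± 3.53 and 10.9 ± 3.54 CPM in the obese pads (SD).

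Ms4a4d rose in lean but did not pass in obese mice. Lean control values were 16.0, 9.97, 12.1, 7.39 and 14.6 CPM and lean tumor-associated values 29.7, 45.5, 27.0, 14.9 and 29.3 CPM. Obese control libraries ranged from 11.4 to 18.0 CPM (median 14.2) and obese tumor-associated libraries from 7.17 to 29.1 CPM (median 20.2). Every lean mouse was higher in the tumor-associated pad, whereas 4 of 6 obese mice were. The lean log2 fold change was 1.28 ± 0.31 (edgeR adjusted p = 0.0225) and lost its call without lean tumor-associated mouse 2 (1.05, edgeR adjusted p = 0.111) and without 4 other lean libraries. The obese value was 0.43 ± 0.28 (edgeR adjusted p = 0.198, 95% interval -0.15 to 1.01). Of 8 mast cell markers, 2 rose in lean and 1 fell in obese tumor-associated IWAT, beside 605 and 7882 of 14458 tested genes called in either direction. Their sum ranged from 189 to 253 CPM and from 227 to 446 CPM in the lean pads, and from 153 to 261 CPM and from 60.2 to 175 CPM in the obese pads, and their part was not tested.

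**Figure D2:**
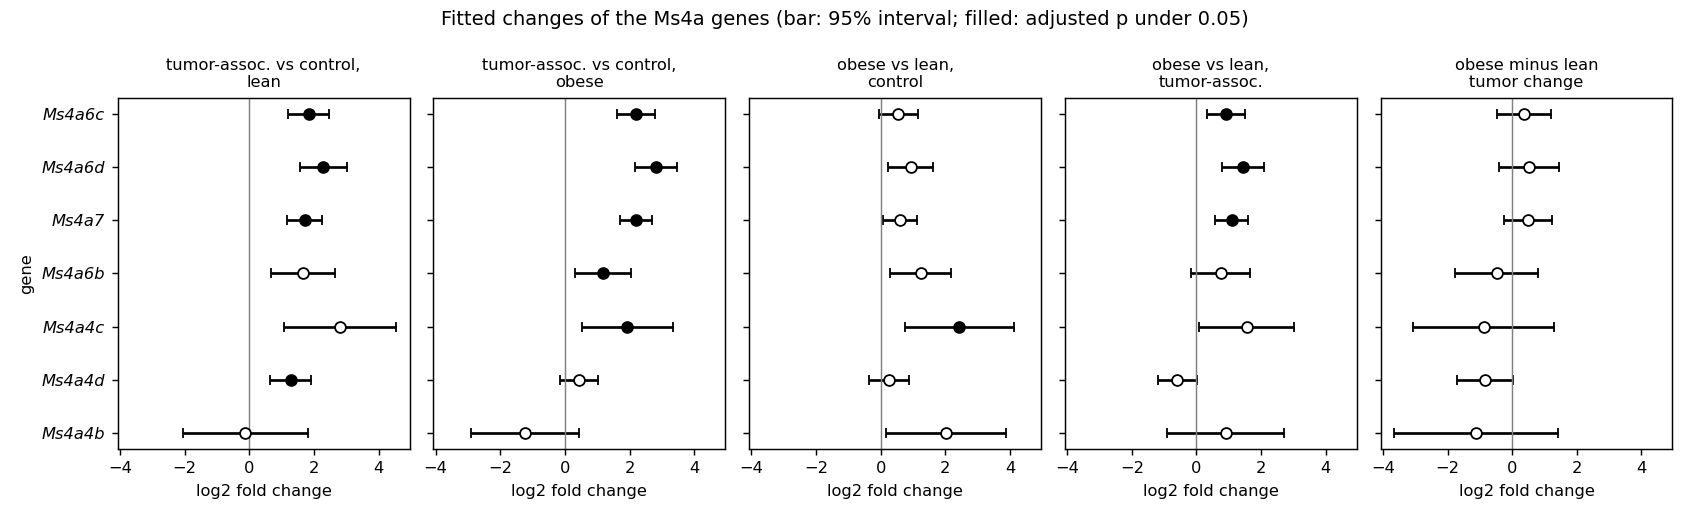
Fitted log2 fold changes of the 7 members in the 5 comparisons, with 95% intervals as bars and filled points for adjusted p under 0.05. Ms4a6c, Ms4a6d and Ms4a7 have narrow intervals above 0 in both tumor comparisons, and all 7 intervals for the difference between the tumor changes include 0.

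The tumor changes of obese and lean mice were then compared directly, to ask whether the response of a member differed between them. The study reported larger tumors in obese than in lean mice, so that diet and tumor size cannot be told apart here. No member passed (0 of 7, against 4.92% of all tested genes called in either direction), 0 were under an unadjusted p of 0.05, and DESeq2 also called 0. The obese minus lean difference on the log2 scale was 0.52 ± 0.45 for Ms4a6d (95% interval -0.42 to 1.46), 0.49 ± 0.35 for Ms4a7 (-0.24 to 1.22) and 0.37 ± 0.40 for Ms4a6c (-0.47 to 1.20). Ms4a4d had a difference of -0.85 ± 0.41, with an interval from -1.71 to 0.01 and an edgeR adjusted p of 0.157. Without obese mice 1 and 3 and with the mouse as a block its difference was -1.16 (edgeR adjusted p = 0.0236). For Ms4a4b, Ms4a4c and Ms4a6b the differences were -1.12 ± 1.22, -0.88 ± 1.05 and -0.48 ± 0.62, and without obese mice 1 and 3 each changed sign (1.60, 1.58 and 0.55), with no call in either set of libraries.

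Obese and lean mice were also compared within each pad. These comparisons share their libraries with the tumor comparisons and with each other, and in tumor-associated IWAT diet and tumor size again cannot be told apart. In tumor-associated IWAT Ms4a6c, Ms4a6d and Ms4a7 were higher in obese mice (3 of 7, against 24.7% of all tested genes called higher). Ms4a6d had a log2 difference of 1.45 ± 0.31 (edgeR adjusted p = 0.000957) and each obese library, from 70.1 CPM, lay above each lean one, up to 69.2 CPM. Ms4a7 differed by 1.09 ± 0.24 (edgeR adjusted p = 0.00118) and Ms4a6c by 0.91 ± 0.28 (edgeR adjusted p = 0.0121), with overlapping ranges. Ms4a4d pointed the other way without passing, at -0.59 ± 0.29 (edgeR adjusted p = 0.0961, 95% interval -1.19 to 0.01). Without both pads of obese mice 1 and 3, Ms4a4c also passed (1.69, edgeR adjusted p = 0.00800), and so did Ms4a4d, which was lower (-0.87, edgeR adjusted p = 0.0303).

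In control IWAT 1 of 7 members, Ms4a4c, was called higher in obese mice (against 9.54% of all tested genes), by 2.43 ± 0.81 on the log2 scale (edgeR adjusted p = 0.0439). This call was near the threshold and was lost without any 1 of 11 libraries. The size of the difference rested on obese mice 1 and 3. Without both, Ms4a4c differed by 0.11 (edgeR adjusted p = 0.942), from 3.07 ± 0.818 CPM in lean control IWAT (SD, n = 5) to 3.26 ± 2.20 CPM in obese control IWAT (SD, n = 4). Ms4a4b moved from 2.03 (edgeR adjusted p = 0.123) to -1.05 (edgeR adjusted p = 0.255) in the same step. For Ms4a6d the obese control libraries (from 14.6 CPM) all lay above the lean ones (up to 11.1 CPM), with mice 1 and 3 the highest of them at 16.4 and 18.5 CPM, a step of far smaller size than for Ms4a4c, while its difference of 0.93 ± 0.34 had an edgeR adjusted p of 0.0611.

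**Figure D3:**
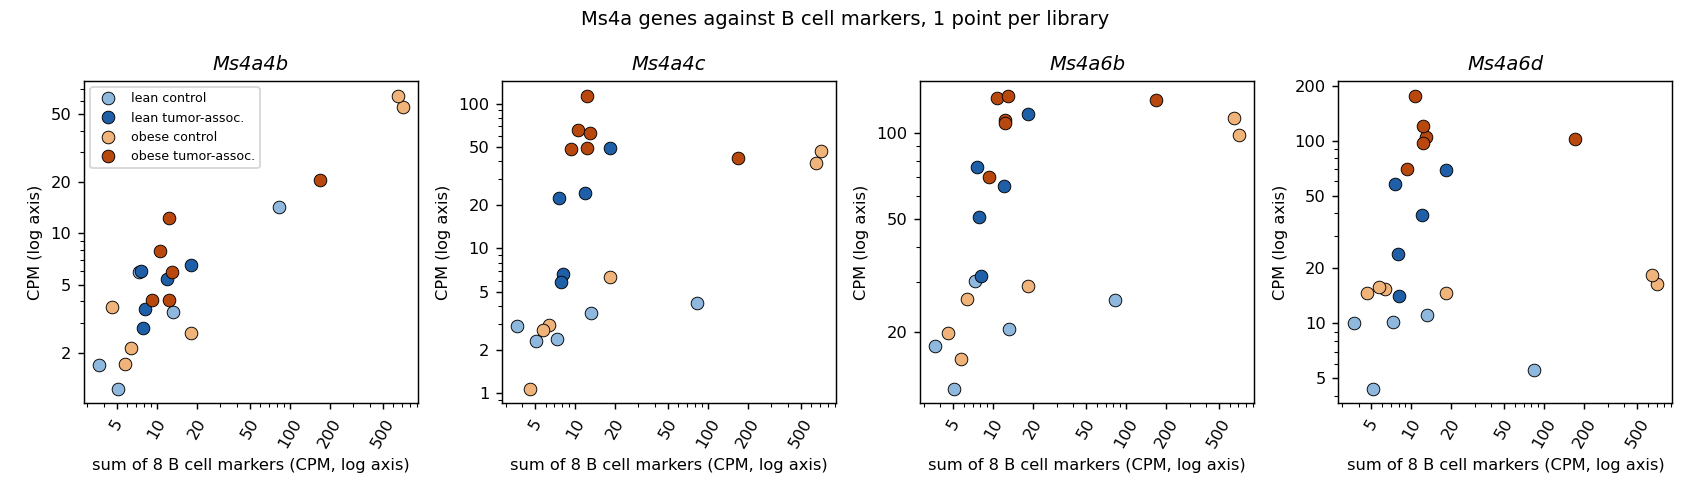
CPM of Ms4a4b, Ms4a4c, Ms4a6b and Ms4a6d against the summed CPM of 8 B cell markers, on log axes, with 1 point per library colored by group. The 2 obese control libraries with B cell sums of 707 and 650 CPM lie far above the other obese control libraries in Ms4a4b, Ms4a4c and Ms4a6b, and in Ms4a6d they are also the highest of that group but by little (16.4 and 18.5 CPM against 14.6 to 15.9 CPM).

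Levels can be compared between members per kb of exon (union of annotated exons). Ms4a6c led in all 4 groups, at 10.1 ± 3.27 and 36.2 ± 18.2 CPM per kb in the lean control and tumor-associated pads and 14.7 ± 4.16 and 67.9 ± 16.2 in the obese pads (SD). Ms4a4b was lowest by this length, at 0.608 ± 0.611, 0.556 ± 0.184, 2.46 ± 3.37 and 1.04 ± 0.725 CPM per kb in the same order, but in obese control IWAT it was within the spread of Ms4a7 (2.83 ± 0.356) and above it with the longest transcript as the length (4.54 against 3.50). That mean rested on obese mice 1 and 3, at 55.0 and 64.2 CPM against 1.72 to 3.68 CPM in the other libraries. Without them Ms4a4b was at 2.53 ± 0.849 CPM and Ms4a7 at 12.5 ± 2.03 CPM (SD, n = 4), before division by length. By either length Ms4a4b is the longer gene. In lean control IWAT Ms4a4d was next to Ms4a6c at 7.94 ± 2.29 CPM per kb, followed by Ms4a6b and Ms4a6d at 4.80 ± 1.54 and 4.78 ± 1.76, which did not differ beyond their spread. In obese tumor-associated IWAT Ms4a6d, at 64.4 ± 20.5 CPM per kb, was within the spread of Ms4a6c and led with the longest transcript as the length. Ms4a4c (36.5 ± 14.9) and Ms4a6b (25.6 ± 5.50) followed there, and Ms4a7 (13.1 ± 4.44) and Ms4a4d (12.8 ± 5.36) did not differ beyond their spread. Ms4a4d thus went from rank 2 of 7 in lean control to rank 6 in obese tumor-associated IWAT.

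**Figure D4:**
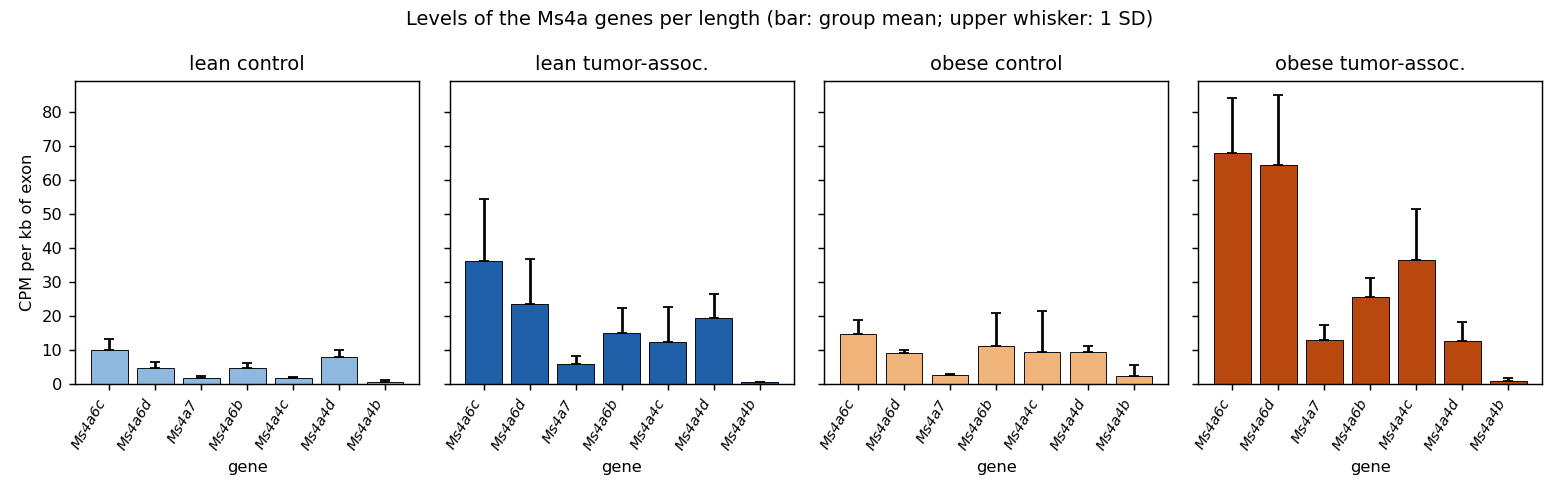
Mean level of each member in CPM per kb of exon in the 4 groups, with the upper whisker at 1 SD (n = 5 lean, 6 obese). Ms4a6c leads in each group, Ms4a6d comes level with it in obese tumor-associated IWAT, and Ms4a4b is lowest in each by this length, within the spread of Ms4a7 in obese control IWAT.

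The macrophage markers rose in the same comparisons as most members. Of 13 macrophage markers, 9 rose in lean and 10 in obese tumor-associated IWAT, none was at 0 in any library, and their sum ranged from 917 to 1873 CPM in control and 1988 to 4249 CPM in tumor-associated IWAT of lean mice, and from 1428 to 1877 CPM and 1951 to 5577 CPM in those of obese mice. Of 7 monocyte markers tested, 5 rose in each diet. Among all tested genes 3.27% were called higher in lean and 26.8% in obese mice. In bulk tissue, more cells of a type and more RNA per cell cannot be told apart. Obese tumor-associated mouse 4 stood apart. Its macrophage sum of 1951 CPM was near the highest of obese control IWAT (1877 CPM), while its 7 members summed to 562 CPM, or 28.8 per 100 CPM of macrophage markers against 8.96 to 12.2 in the other 5 libraries of its group. Per 100 CPM of macrophage markers, Ms4a6d was at 0.601 ± 0.168 and 1.20 ± 0.414 CPM in the control and tumor-associated pads of lean mice and at 0.938 ± 0.0771 and 2.80 ± 1.17 CPM in those of obese mice (SD). In the last of these groups mouse 4 was at 4.96 CPM and the other 5 libraries lay between 1.89 and 3.25 CPM. Ms4a4d was at 0.878 ± 0.149, 0.899 ± 0.142, 0.844 ± 0.0857 and 0.440 ± 0.0886 CPM in the same order, with every obese tumor-associated library (0.314 to 0.546) under every other library (from 0.719). The means in the same order were 0.620, 0.838, 0.744 and 1.59 CPM for Ms4a7 and 1.51, 2.21, 1.77 and 3.61 CPM for Ms4a6c. For Ms4a6b they were 1.56, 2.04, 2.86 and 2.93 CPM, and for Ms4a4c 0.234, 0.616, 0.916 and 1.94 CPM. Ms4a4b had means of 0.381, 0.153, 1.18 and 0.248 CPM. The obese control means of Ms4a6b, Ms4a4c and Ms4a4b rested on mice 1 and 3. These were at 5.27 and 6.21 CPM for Ms4a6b, 2.53 and 2.15 CPM for Ms4a4c and 2.93 and 3.53 CPM for Ms4a4b. The other obese control libraries lay at 0.929 to 1.93, 0.0752 to 0.419 and 0.0995 to 0.258 CPM. In obese tumor-associated IWAT mouse 4 was the highest library for each member but Ms4a4d. The part of macrophage markers in the members' changes was not tested. Of 8 adipocyte markers none changed in lean and all 8 fell in obese tumor-associated IWAT, where their sum ranged from 1724 to 10653 CPM, and their part was not tested either. Far fewer genes were called in lean than in obese mice, 605 against 7882 of 14458 in either direction.

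Receptors and adaptors linked to Ms4a proteins were read beside them, as a list of 10 genes that were all tested. Of these, 3 rose in lean tumor-associated IWAT (against 3.27% of all tested genes), with log2 fold changes of 1.47 ± 0.35 for Fcer1a, the alpha chain of the IgE receptor (edgeR adjusted p = 0.0212), 1.45 ± 0.23 for its gamma chain Fcer1g (edgeR adjusted p = 0.00111) and 1.02 ± 0.26 for the signaling adaptor Tyrobp (edgeR adjusted p = 0.0307). In obese tumor-associated IWAT 4 rose (against 26.8% of all tested genes), with 2.00 ± 0.21 for Fcer1g (edgeR adjusted p = 1.70e-06), 1.32 ± 0.24 for Tyrobp (edgeR adjusted p = 0.000189), 1.23 ± 0.42 for Trem2, a lipid-sensing macrophage receptor (edgeR adjusted p = 0.0173), and 2.34 ± 0.57 for the complement receptor Vsig4 (edgeR adjusted p = 0.00203). None fell in either diet over all libraries. The median log2 fold change of the list was 0.86 in lean and 0.46 in obese mice. Vsig4, the partner of Ms4a6d, was at 2.10 ± 0.993 CPM in obese control and 10.7 ± 5.63 CPM in obese tumor-associated IWAT (SD), while Tnfrsf18, the partner of Ms4a4b, was at 2.68 ± 2.45 and 3.28 ± 2.22 CPM with no call in any comparison of all libraries. Clec7a (Dectin-1), a partner of Ms4a4a, was at 13.5 ± 6.08 CPM in lean control and 14.2 ± 3.93 CPM in lean tumor-associated IWAT, also with no call. Between diets, 4 of the 10 were higher in obese tumor-associated IWAT (against 24.7% of all tested genes) and 2, Tmem176a and Tmem176b, were lower (against 22.4%). In obese control IWAT 2 were higher (against 9.54% of all tested genes), Trem2 by 3.20 ± 0.53 on the log2 scale (edgeR adjusted p = 0.000407) and the kinase Syk by 1.20 ± 0.38 (edgeR adjusted p = 0.0328). Without both pads of obese mice 1 and 3 Trem2 still differed there (3.42, edgeR adjusted p = 0.00105) and Syk did not pass (0.43, edgeR adjusted p = 0.361). The obese tumor change then lost Trem2 (1.00, edgeR adjusted p = 0.107) and gained Syk (0.84, edgeR adjusted p = 0.0261) and Tnfrsf18 (1.05, edgeR adjusted p = 0.0478), while Tmem176b fell (-0.81, edgeR adjusted p = 0.0179). In those libraries Tmem176b also passed for the difference of tumor changes (-1.27, edgeR adjusted p = 0.0164).

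The likeness of profiles was measured as the root mean square difference of log2 CPM over the 22 libraries, after centering each gene on its mean, and is a description over libraries that share groups and mice. Among the members Ms4a6c and Ms4a7 were closest, at 0.322, and Ms4a4c and Ms4a4d farthest apart, at 1.83. The promoter partners Ms4a6b and Ms4a6c were at 0.488, whereas Ms4a4b and Ms4a4c were at 1.61. The nearest gene outside the members was Fcer1g for Ms4a6c (0.334), the lectin gene Clec4a3 for Ms4a7 (0.349) and the scavenger receptor gene Msr1 for Ms4a6d (0.377). It was Slfn2 for Ms4a6b (0.301), Slfn1 for Ms4a4c (0.681), Ipcef1 for Ms4a4b (0.420), with the T cell costimulator Cd28 next (0.439), and the mast cell chymase gene Cma1 for Ms4a4d (0.272).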

How the data were processed

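RNA-sequencing libraries of control and tumor-associated IWAT from 11 mice were grouped by the diet and pad in their labels. After trimming, the authors mapped the reads to mm10 with STAR (2.4.0f in the submitters' processing notes) and deposited raw HTSeq counts for each gene symbol. Which annotation and strand setting HTSeq used is not given in the sources used here. Reads that map to several places are not counted for a gene and took 15.1% to 18.9% of all tabulated reads, which lowers counts of genes with near-identical copies. The 5 HTSeq total lines, of which reads on no gene took 38.5% to 48.8%, were left out, and 0 columns belonged to no sample here.

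Counts were normalized by TMM, filtered with filterByExpr by group and tested with edgeR 4.0.16 (R 4.3.3, glmQLFit and glmQLFTest) in one fit of 4 group means over 22 libraries, with Benjamini-Hochberg adjustment over all 14458 genes tested and a threshold of 0.05. The SE is the absolute log2 fold change divided by the square root of F. CPM values use the TMM library sizes, and log2 CPM for profiles a prior count of 2. No 2 libraries of a group agreed within sampling noise (smallest chi-square per degree of freedom 5.69). At the depths of 5759775 to 8598108 counts, 1 CPM is only a few counts. The fit was tested on simulated data.

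Both pads came from the same mouse, and the deviations of paired pads correlated above 0.1 in 5 of 5 lean mice (median 0.508) and 4 of 6 obese mice (median 0.168). Blocking on the mouse was therefore an alternative, beside DESeq2 1.42.0, other normalizations and filters, the compared groups alone and each library left out. Leaving out the libraries highest in B cell markers, or both pads of obese mice 1 and 3, was chosen after seeing the data, as were the 4 motifs and the search for shared promoter runs. The members and the lists of markers and linked genes were chosen with earlier results of these data known. All members, all other Ms4a genes in the table, linked genes called in a tumor comparison and the nearest profiles were eligible to be named. Clec7a, Syk, Tnfrsf18, Tmem176a and Tmem176b were named for their role or call after their values were seen. Gene models were from GENCODE M21 (GRCm38), and promoters from RefSeq (GRCm38.p6), which held 7 of 8 members.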

Additional observations from a re-analysis of the deposited data

Results flagged for a closer look

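Ms4a4c in obese tumor-associated mouse 4 was at 114 CPM, and the next library of that group was at 66.2 CPM. The gap to the next library was 0.667 of the range of the 6 libraries, above the 95% critical value of Dixon's test. Of 28 sets of libraries tested for the 7 members it was the only one past that limit, and chance gives about 1 in 20. The same library had the lowest macrophage marker sum of its group (1951 CPM) and the lowest adipocyte marker sum (1724 CPM). It was also the lowest of its group for monocyte (729 CPM), fibroblast (1019 CPM), endothelium (230 CPM) and mast cell (60.2 CPM) markers. For T and NK cell, B cell, neutrophil, dendritic cell and luminal epithelium markers it was not the lowest.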

How the results depend on the processing

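Ms4a6c, Ms4a6d and Ms4a7 kept their direction and call in the lean, obese and tumor-associated diet comparisons under every alternative. Directions or calls of Ms4a4b, Ms4a4c, Ms4a4d and Ms4a6b changed without obese mice 1 and 3, and the cause was not tested. Ms4a4d gained calls for the diet difference in tumor-associated IWAT and, with the block as well, for the difference of tumor changes. Ms4a4b reversed in lean mice to 0.23 with the mouse as a block, 0.21 with the block and without these mice, and 0.66 and 0.01 without lean control mouse 2 or lean tumor-associated mouse 9, within a range of -0.37 to 0.66 over the fits that lacked 1 library. In obese mice Ms4a4b reversed to 1.42 without the 3 libraries highest in B cell markers, 1.47 without both pads of these mice and 1.37 with the block as well. Its diet difference in control IWAT became -1.06 and -1.05, and its difference of tumor changes 1.55, 1.60 and 1.16 in the same order. The difference of tumor changes also reversed for Ms4a4c, to 0.28 with the block alone and 1.55, 1.58 and 1.77 in that order, and for Ms4a6b, to 0.63, 0.55 and 0.60. Of the member results under an alternative, 992 kept their direction and their side of the threshold, 24 lost a call, 40 gained one and 19 reversed, which are the values above.

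The 5 members called in obese mice became 3 with the groups compared alone, where Ms4a4c and Ms4a6b lost their calls. The 1 member called between diets in control IWAT became 3 with DESeq2, 2 with the groups alone, and 0 without a filter, with at least 10 counts in every library, and in both fits without libraries high in B cell markers. The 3 members called between diets in tumor-associated IWAT became 5 in both of the latter. The difference of tumor changes gained 1, Ms4a4d, with the block and without obese mice 1 and 3. The block changed no other call of a member but that of Ms4a6b in lean mice. Over the fits that each lacked 1 library, the number of members called was 3 to 6 in lean mice, 4 to 6 in obese mice, 0 to 2 and 3 to 4 between diets in control and tumor-associated IWAT, and 0 to 0 for the difference. The 1 call in control IWAT was lost without any 1 of 11 libraries, among them obese control mouse 1 (1.76, edgeR adjusted p = 0.139) and mouse 3 (1.95, edgeR adjusted p = 0.119).

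Over all genes, the 605 called in lean mice became 913 with DESeq2, 1437 with the groups alone and 944 with the block and without obese mice 1 and 3. The 711 called for the difference became 2364 with DESeq2, 18 without a filter, and 1170, 4951 and 5190 in the 3 fits without libraries high in B cell markers. Leaving out each library gave 183 (without lean tumor-associated mouse 2) to 952 (without obese tumor-associated mouse 4) in lean mice, 6915 to 8403 in obese mice, 1606 to 3428 and 5902 to 7464 between diets, and 1 (without lean tumor-associated mouse 0) to 3568 (without obese tumor-associated mouse 1) for the difference. Upper-quartile normalization moved the split of higher and lower calls from 473 and 132 to 382 and 199 in lean mice, and from 1380 and 1088 to 1068 and 1446 between diets in control IWAT. Members near 3 CPM, such as Ms4a4b and Ms4a4c in control IWAT, rested on as few as 7 counts, and small changes in them were not detectable at this depth. Nearest profiles were mostly others when genes were centered within groups, with 0 of 3 shared for Ms4a6b, Ms4a6c and Ms4a7.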

Other observations

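Among the 9 other Ms4a genes in the table, Ms4a8a rose in obese tumor-associated IWAT, with a log2 fold change of 2.34 ± 0.41 (edgeR adjusted p = 0.000164). It was at 2.48 ± 0.984 CPM in obese control and 12.7 ± 6.96 CPM in obese tumor-associated IWAT (SD, n = 6), and mouse 4 stayed low in the latter at 2.44 CPM. In lean mice its change was 1.34 ± 0.44 (edgeR adjusted p = 0.0962), from 1.76 to 6.15 CPM in control and 6.56 to 14.1 CPM in tumor-associated IWAT, without overlap. Ms4a1, which encodes CD20, was at 127 and 114 CPM in obese control mice 1 and 3, at 33.9 CPM in obese tumor-associated mouse 3, at 18.4 CPM in lean control mouse 2 and at most 3.42 CPM in the other libraries, and was called in no comparison. Ms4a2, the IgE receptor beta chain, lay between 0.525 and 5.91 CPM and was called in none either. Ms4a3, Ms4a5, Ms4a13 and Ms4a15 had at most 1 count in any library, and Ms4a10 and Ms4a18 had 0 in every library.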
